A study of Mus musculus with 24 samples.

Results

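Transcripts of 10 genes of V(D)J recombination and of the end joining that completes it were followed in CLPs and B cell progenitors of mice with and without the phospholipases PLCγ1 and PLCγ2. The genes were chosen by symbol for their function, with earlier results of these data known, and are Rag1, Rag2, Dntt, Polm, Poll, Prkdc, Xrcc4, Xrcc5, Xrcc6 and Lig4. All 10 had a row among the 24421 genes of the count files. The RNA-seq comprised 24 libraries from 12 mice, each of which gave 1 library of CLPs, sorted as Lin-IL-7R+, and 1 library of B220+IgM-IL-7R+ B cell progenitors. The 4 genotypes, with 3 mice each, were control Plcg1+/+Plcg2+/+, Plcg1-/-Plcg2+/+ (lacking PLCγ1), Plcg1+/+Plcg2-/- (lacking PLCγ2) and double-deficient Plcg1-/-Plcg2-/- (lacking both). These mice were lethally irradiated wild-type CD45.1+ recipients, and the sorted CD45.2+ cells came from transplanted BM of young adult donors of mixed 129 and C57BL/6 background. In the donors, floxed Plcg1 was deleted by MxCre, whose promoter responds to type I interferon, after repeated poly(I:C) injection, and Plcg2 was absent from the germ line. The donors also carried a Rosa-YFP reporter of Cre activity. The number of donors per genotype was not stated, so n counts recipients and the spread between them may not include that between donors.

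During V(D)J recombination the RAG recombinase cuts DNA beside V, D and J segments of antigen receptor genes, which leaves sealed hairpins on the coding ends. Ku holds the broken ends and recruits DNA-PKcs, which with Artemis opens the hairpins, after which polymerases of the X family fill gaps or add bases and the XRCC4-ligase IV complex seals them. In the B lineage the IgH locus is rearranged at the pro-B cell stage and the light chain loci in pre-B cells. RAG and the X-family polymerase TdT mark early stages of the lineage, whereas Ku, DNA-PKcs and ligase IV are made in most cells.

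CLP libraries held 4232345 to 33219995 reads on genes, and those of B cell progenitors 1479582 to 25057223. Values are given as normalized CPM, read counts per gene divided by library size, with TMM factors set within each population. At these depths 3 reads corresponded to between 0.0903 and 0.709 CPM in CLPs and to between 0.120 and 2.03 CPM in B cell progenitors, which covers counting error only, and all 10 genes passed edgeR's filter on low counts. Of the reads, 17.9% to 45.2% fell on no gene in CLP libraries and 59.9% to 87.3% in B cell progenitor libraries. These ranges do not overlap, so the populations and this feature of their libraries cannot be told apart. Plcg2 lay between 72.7 and 137 CPM in the 12 Plcg2-/- libraries and between 184 and 279 CPM in the other 12. Plcg1, counted over the whole gene and thus also over exons outside a floxed stretch, lay between 56.5 and 185 CPM in libraries labelled Plcg1-/- and between 78.0 and 115 CPM in the others, so it did not check the label. Libraries labelled Plcg1-/- carried Xist at 1309 to 2248 CPM against 23.5 to 741 CPM in the others, and sex-linked expression and the Plcg1 genotype cannot be told apart.

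The CLP label was checked against marker genes. Flt3, a receptor of lymphoid progenitors, reached 735 CPM in Plcg1+/+Plcg2+/+ replicate 1, 438 in Plcg1-/-Plcg2+/+ replicate 2, 419 in Plcg1+/+Plcg2-/- replicate 2 and 189 in Plcg1-/-Plcg2-/- replicate 2. In the other 8 CLP libraries it lay between 25.6 and 115 CPM, against 28.9 to 112 CPM in B cell progenitors. The 5 lymphoid progenitor genes Flt3, Il7r, Kit, Ly6a and Ly6d summed to between 548 and 1606 CPM in CLPs. In B cell progenitors they summed to between 506 and 763 CPM. The 6 pro-B cell genes Vpreb1, Vpreb2, Igll1, Cd79a, Cd79b and Blnk summed to between 549 and 4252 CPM in CLPs and to between 1099 and 4412 CPM in B cell progenitors. Thus 8 of the 12 libraries labelled CLP held Flt3 near the level of B cell progenitors, and all 12 held pro-B cell transcripts. The 8 myeloid markers Itgam, Csf1r, Lyz2, Cd68, Mpo, Elane, S100a8 and S100a9 summed to between 2293 and 8640 CPM in CLPs and to between 1438 and 7722 CPM in B cell progenitors, and the globin genes Hbb-bt, Hba-a1 and Hba-a2 were counted at 0 in every library. Comparisons of CLPs are therefore given for all 12 libraries and, where they lead, without the 4 libraries richest in Flt3, which leaves 2 per genotype. In bulk RNA, fewer cells of a type and less RNA per cell cannot be told apart.

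Levels of different genes can be set side by side only per length of exon. The length used was the union of all annotated exons of a gene. It can exceed that of the transcript made, so the order depends on the annotation. Per kb of exon, the order of the medians over the 12 CLP libraries was Dntt at 252 normalized CPM per kb, Rag1 at 64.0, Xrcc6 at 46.6, Rag2 at 15.7, Polm at 13.8, Poll at 10.4, Lig4 at 9.56, Xrcc5 at 8.47, Prkdc at 5.54 and Xrcc4 at 2.96. In the 12 B cell progenitor libraries it was Dntt at 208, Rag1 at 111, Xrcc6 at 61.4, Rag2 at 26.9, Polm at 20.8, Lig4 at 19.1, Xrcc5 at 10.4, Poll at 8.22, Prkdc at 5.92 and Xrcc4 at 3.69. The same genes stood at both ends of this order in both populations, and in B cell progenitors every pair of neighbours had overlapping ranges over the 12 libraries. In CLPs the ranges of Xrcc6 and Rag2 did not overlap, nor did those of Prkdc and Xrcc4, and the other neighbours overlapped. Dntt spanned 14.4-fold between the lowest and the highest CLP library and 18.2-fold between B cell progenitor libraries, and Polm spanned 8.47-fold and 13.9-fold. Prkdc spanned 1.93-fold and 1.99-fold, and Xrcc4 1.90-fold and 2.03-fold.

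**Figure D1:**
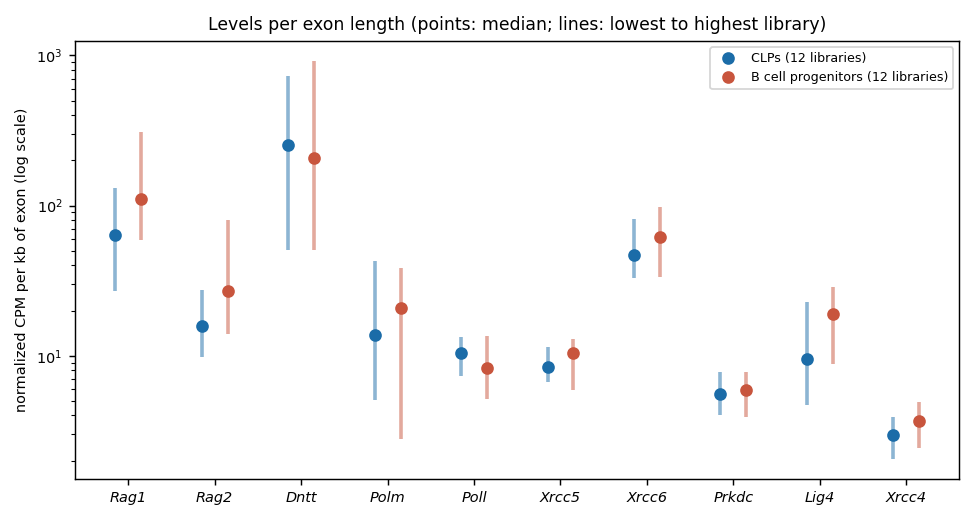
Normalized CPM per kb of exon (log axis) of the 10 genes in CLPs (blue) and B cell progenitors (red). Points are the median of 12 libraries and lines run from the lowest to the highest; Dntt stands highest at medians of 252 and 208 and Xrcc4 lowest at 2.96 and 3.69.

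The comparison of Plcg1-/-Plcg2-/- with Plcg1+/+Plcg2+/+ asks how loss of both isoforms alters these transcripts. Polm, which encodes the template-directed DNA polymerase μ that acts at joins of immunoglobulin light chain genes, fell in B cell progenitors and was the 1 of the 10 genes called changed. A call needed an adjusted p no higher than 0.05 in edgeR's quasi-likelihood test (Benjamini-Hochberg over all genes tested) together with a log2 fold change of 0.5 or more in size, which are the thresholds of the study. Among B cell progenitors 0.893% of 15001 genes were called in this comparison. In CLPs none of the 10 was called, against 0.0921% of 15209 genes, and by unadjusted p alone Polm was the 1 of 10 at or under 0.05 against 7.52% of all genes (DESeq2 called 1, also Polm). By unadjusted p, 2 of the 10 passed in B cell progenitors, Polm and Poll, against 12.3% of all genes.

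Polm lies on chromosome 11 at 5827860 to 5838016 on the minus strand (mm10), and no other annotated gene overlaps it. Its sequence before the transcription start is shown because Polm carries the change between genotypes, and those of Rag1, Rag2 and Dntt because these 3 lymphoid genes mark the stage of the cells. Each is the RefSeq stretch of 250 bases (GRCm38.p6) that ends just before the start, read 5′ to 3′ on the strand of the gene. Capitals mark E-boxes, CANNTG, the motif of E proteins such as that of Tcf3, which reads alike on both strands.
Polm, chr11:5838017-5838266, minus strand: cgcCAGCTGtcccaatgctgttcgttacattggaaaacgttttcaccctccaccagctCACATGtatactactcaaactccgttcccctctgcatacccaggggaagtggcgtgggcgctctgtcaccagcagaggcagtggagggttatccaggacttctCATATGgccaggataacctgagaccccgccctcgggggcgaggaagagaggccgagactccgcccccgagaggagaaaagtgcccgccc
Rag1, chr2:101649533-101649782, minus strand: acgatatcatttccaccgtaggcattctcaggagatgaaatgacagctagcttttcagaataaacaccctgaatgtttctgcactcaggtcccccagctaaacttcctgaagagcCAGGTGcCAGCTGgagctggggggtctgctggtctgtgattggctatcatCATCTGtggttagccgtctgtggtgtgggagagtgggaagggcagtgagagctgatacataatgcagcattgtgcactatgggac
Rag2, chr2:101624462-101624711, plus strand: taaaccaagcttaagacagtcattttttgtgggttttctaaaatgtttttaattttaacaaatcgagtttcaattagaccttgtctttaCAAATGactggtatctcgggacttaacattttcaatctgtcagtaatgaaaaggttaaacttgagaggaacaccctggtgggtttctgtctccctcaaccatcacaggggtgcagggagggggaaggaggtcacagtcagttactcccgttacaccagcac
Dntt, chr19:41029025-41029274, plus strand: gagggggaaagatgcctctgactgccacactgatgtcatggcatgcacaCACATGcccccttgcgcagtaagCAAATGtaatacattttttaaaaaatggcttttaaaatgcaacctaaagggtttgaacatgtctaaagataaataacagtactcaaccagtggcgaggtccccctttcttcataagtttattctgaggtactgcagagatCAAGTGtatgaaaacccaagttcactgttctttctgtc

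Polm had 3 E-boxes in this window, Rag1 3, Rag2 1 and Dntt 3, and 66.2% of the 32817 mouse promoters of the same length held at least 1. The GC box GGGCGG, searched on both strands, was found 3 times in Polm and not in Rag1, Rag2 or Dntt, and 32.7% of all promoters held it. The motif CCAAT, also on both strands, was found 2 times in Polm and 1 time in Rag1, against a share of 33.8% of promoters, and TATAAA was in none of the 4 windows and in 12.4% of all promoters. Polm had 13 CpG dinucleotides, more than 68.5% of promoters, against 3 in Rag1, 3 in Rag2 and 2 in Dntt, and the median promoter had 6. Among the end-joining genes that matched, CpG counts were 25 for Xrcc6, 26 for Xrcc4, 27 and 28 for the 2 starts of Lig4, and 5 for Xrcc5. In all, 8 of the 10 genes matched the promoter table, and Poll and Prkdc did not. These matches describe the letters alone, and binding was not measured.

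In B cell progenitors Polm stood at 138, 128 and 102 CPM in the 3 Plcg1+/+Plcg2+/+ libraries and at 19.8, 10.2 and 24.7 CPM in the 3 Plcg1-/-Plcg2-/- libraries. Every double-deficient library was thus below every control library. The means were 123 ± 18.5 (SD, n = 3) and 18.2 ± 7.38 CPM (SD, n = 3), a 6.89-fold lower level (log2 fold change -2.78, SE 0.40, adjusted p = 0.0075 by edgeR). Between 60 and 239 reads supported each double-deficient value and between 1189 and 1385 each control value. Leaving out each of the 6 libraries in turn gave log2 fold changes between -3.11 and -2.45, with the call kept each time.

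The single-deficient B cell progenitors had mean Polm levels between those of the other 2 genotypes. It was at 91.8, 88.3 and 64.2 CPM in Plcg1-/-Plcg2+/+ B cell progenitors, all below the control libraries (log2 fold change -0.59, SE 0.37, adjusted p = 0.48 by edgeR), where 9.99% of all genes lay wholly below. It was at 63.1, 141 and 48.3 CPM in Plcg1+/+Plcg2-/- B cell progenitors, which overlapped with controls (log2 fold change -0.50, SE 0.37, adjusted p = 0.92 by edgeR). None of the 10 genes was called in either genotype, against 0.06% and 0.0467% of all genes, none had an unadjusted p of 0.05 or less, against 9.93% and 2.84%, and DESeq2 called none of the 10.

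Set against the single-deficient genotypes directly, Polm in Plcg1-/-Plcg2-/- B cell progenitors was below every Plcg1-/-Plcg2+/+ library (log2 fold change -2.19, SE 0.40) and below every Plcg1+/+Plcg2-/- library (log2 fold change -2.28, SE 0.40). Of all genes, 11% and 7.97% lay wholly below in these comparisons, and of the 10, Prkdc also did in the first. The adjusted p of 0.058 and 0.059 by edgeR just missed the threshold, where 0.213% and 0.153% of genes were called and 16.6% and 11% had an unadjusted p of 0.05 or less. By unadjusted p, Polm was the 1 member in the first comparison, and Polm and Dntt were the 2 in the second. DESeq2 called 802 and 161 genes in all in these comparisons, against 32 and 23 by edgeR. Polm passed in both with DESeq2 (adjusted p = 3.8e-05 and 2.5e-05) and with edgeR without a filter on low counts (adjusted p = 0.024 and 0.019). Against Plcg1-/-Plcg2+/+ it also passed with the replicate number as a block (adjusted p = 0.041 by edgeR), and against Plcg1+/+Plcg2-/- without replicate 3 of that genotype (adjusted p = 0.036 by edgeR, log2 fold change -2.53). Without replicate 2 of Plcg1+/+Plcg2-/- the log2 fold change was -1.65 (adjusted p = 0.20 by edgeR), and it missed the threshold when any 1 of the other 4 libraries was left out. Against Plcg1-/-Plcg2+/+ it ran from -2.50 to -1.85 as libraries were left out and passed in none of these fits. The other 9 genes, none called, had log2 fold changes between -0.31 (Prkdc) and 1.54 (Dntt) against Plcg1-/-Plcg2+/+ and between -0.40 (Lig4) and 2.04 (Dntt) against Plcg1+/+Plcg2-/-.

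In CLPs Polm was at 28.2, 156 and 93.9 CPM in Plcg1+/+Plcg2+/+ libraries and at 32.3, 18.4 and 22.6 CPM in Plcg1-/-Plcg2-/- libraries. The groups overlapped through 1 control library, replicate 1, which was also the library richest in Flt3. The means of 92.8 ± 64.0 and 24.4 ± 7.08 CPM (SD, n = 3 each) differed by a log2 fold change of -1.91 (SE 0.54, adjusted p = 0.36 by edgeR's quasi-likelihood test). Without that control library the log2 fold change was -2.36 (adjusted p = 0.049 by edgeR), without control replicate 2 it was -1.30 (adjusted p = 0.85 by edgeR), and DESeq2 on all libraries gave -1.92 (adjusted p = 0.024), so the call in CLPs turned on 1 library and on the tool. In the 8 CLP libraries with less Flt3 the log2 fold change was -2.20 (SE 0.36, adjusted p = 0.059 by edgeR, n = 2 per genotype). Among the 4 libraries richest in Flt3, 1 of each genotype and so with no test, Polm was at 28.2 CPM in Plcg1+/+Plcg2+/+, 36.4 in Plcg1-/-Plcg2+/+, 48.8 in Plcg1+/+Plcg2-/- and 18.4 in Plcg1-/-Plcg2-/-.

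CLPs of the single-deficient genotypes held Polm at 86.5, 36.4 and 52.4 CPM without PLCγ1 and at 104, 48.8 and 62.4 CPM without PLCγ2. All 3 Plcg1-/-Plcg2-/- libraries lay below both sets (log2 fold change -1.25, SE 0.53, and -1.55, SE 0.54), as did 4.89% and 7.4% of all genes, and neither passed (adjusted p = 1.0 and 0.57 by edgeR). No member was called in either comparison by edgeR or DESeq2, against 0.0263% and 0.0526% of genes by edgeR, and Polm was the 1 of 10 with an unadjusted p of 0.05 or less in each, against 4.29% and 7.54%. The other 9 genes lay between -0.03 (Prkdc) and 0.84 (Rag1) and between -0.20 (Prkdc) and 0.73 (Rag1) on the log2 scale. The difference of the Polm change between B cell progenitors and CLPs was -0.88 on the log2 scale (SE 0.69, adjusted p = 1.0 by edgeR), with an interval of 2 SE from -2.26 to 0.51. The other 9 genes had differences between -0.35 (Lig4) and 1.91 (Dntt). This test of the difference called 0% of 17212 genes and 0 of the 10, as did DESeq2, and 1.37% of all genes and 0 of the 10 had an unadjusted p of 0.05 or less.

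**Figure D2:**
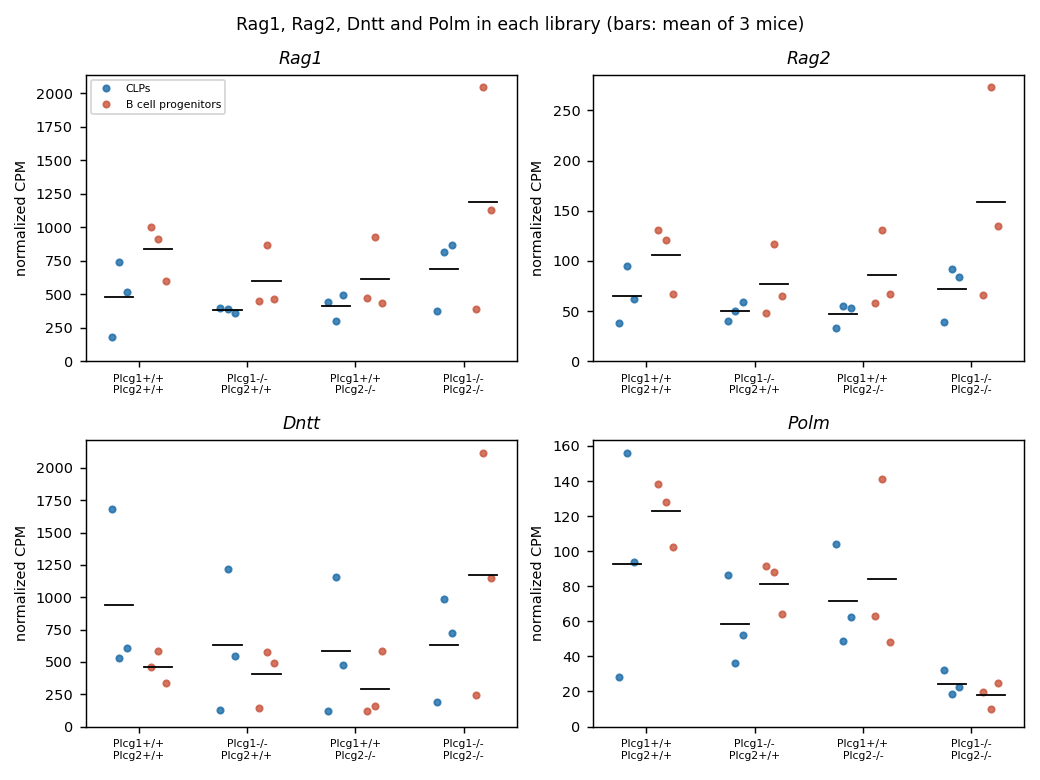
Normalized CPM (linear axes from 0) of Rag1, Rag2, Dntt and Polm in each CLP library (blue points) and B cell progenitor library (red points) of the 4 genotypes, with the mean of 3 mice as a bar. Polm stands at 10.2 to 32.3 in the 6 Plcg1-/-Plcg2-/- libraries, in which Rag1 spans 377 to 2048 and Dntt 193 to 2117.

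The change of Polm was set beside markers of later B cells. Of the 4 pre-B and later B cell genes with a row (Il2ra, Ms4a1, Cd22 and Cd74), 2 were called lower in Plcg1-/-Plcg2-/- B cell progenitors, against 0.673% of all genes. All 4 had negative log2 fold changes there, and they summed to 148 to 400.3 CPM in that genotype against 563 to 796 in controls. The genes called were Il2ra, the CD25 chain of the IL-2 receptor that marks pre-B cells (log2 fold change -3.40, SE 0.51, adjusted p = 0.0082 by edgeR), and Cd22, an inhibitory receptor of B cells (-1.62, SE 0.24, adjusted p = 0.0075 by edgeR). In CLPs the 4 genes summed to 198 to 432 CPM without both isoforms and to 309 to 944 CPM in controls, with none called. There 1 of the 4 had a positive log2 fold change and 3 a negative one (median -1.30). The sums of the 6 pro-B cell genes overlapped, at 1455 to 4412 CPM in Plcg1-/-Plcg2-/- B cell progenitors against 1768 to 2603 CPM in controls, with none called. All 8 myeloid markers had positive log2 fold changes in both populations, with none called, and summed to 2628 to 6853 CPM in double-deficient against 1438 to 4478 CPM in control B cell progenitors and to 3347 to 7884 against 2293 to 3906 CPM in CLPs. Of 8 T and NK cell markers, 7 had positive log2 fold changes in double-deficient B cell progenitors (median 0.84; sums of 112 to 175 against 87.6 to 124 CPM in controls) and 1 of 8 in CLPs (median -0.62). All 4 plasmacytoid dendritic cell markers were positive in B cell progenitors (median 0.80; sums of 188 to 428 against 118 to 207 CPM) and 1 of 4 in CLPs (median -0.29). Of 5 lymphoid progenitor genes, 3 were positive in B cell progenitors (median 0.86; sums of 574 to 710 against 563 to 763 CPM) and 1 in CLPs (median -0.19). Both erythroid genes tested, of 5 listed, were positive in both populations (median 0.78 in B cell progenitors, sums of 18.8 to 53.9 against 4.19 to 45.1 CPM, and 0.69 in CLPs), and none of these markers was called. The part of these cells in the lower Polm was not tested.

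Across the 12 B cell progenitor libraries, log2 CPM of Polm had a Pearson r of 0.95 with Il2ra, of 0.95 with Cd22 and of -0.53 with Dntt. In CLPs r was 0.81 with Il2ra, 0.94 with Cd22 and -0.50 with Dntt. Il2ra and Cd22 are the 2 markers called lower, like Polm, in double-deficient B cell progenitors. A high r with them there was thus largely set in advance, and r with Ms4a1 and Cd74 was not computed. Searched after its values were seen, the 5 genes most like Polm were Fcrla, Ralgps2, Glcci1, Ikzf3 and Gpr155 in B cell progenitors (r from 0.959 to 0.983) and Rapgefl1, Gpr12, Fcrla, Serinc5 and Dennd5b in CLPs (r from 0.957 to 0.983). These values describe 12 libraries of 4 genotypes that share depth and cell makeup, and are not tests.

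Poll, which encodes the gap-filling polymerase λ and lies on chromosome 19 at 45552275 to 45560531 (mm10), was not called in either population. In B cell progenitors Poll was at 11.9, 17.7 and 19.5 CPM in controls and at 16.2, 31.4 and 24.8 CPM in Plcg1-/-Plcg2-/- libraries. These ranges overlap, and the log2 fold change of 0.58 (SE 0.26) had an adjusted p of 0.39 by edgeR. In CLPs it was at 22.9, 23.9 and 19.996 CPM in controls and at 24.5, 26.2 and 31.1 CPM without both isoforms, all higher, with a log2 fold change of 0.30 (SE 0.19, adjusted p = 0.76 by edgeR). Poll was the 1 of 10 genes wholly above controls in CLPs, where 5.85% of all genes were, and none of the 10 was wholly above in B cell progenitors, against 8.93%. In single-deficient cells it ran from 16.9 to 25.2 CPM in CLPs and from 13.7 to 23.3 CPM in B cell progenitors, with log2 fold changes of 0.00 to 0.34 against controls.

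Rag1 and Rag2 encode the subunits of the recombinase and lie beside each other on chromosome 2, at 101638282 to 101649501 on the minus strand and 101624718 to 101632529 on the plus strand (mm10). Both overlap the gene B230118H07Rik, and the library kit does not mark strand, so reads from shared stretches cannot be assigned by strand. Rag1 was at 1000.3, 914 and 598 CPM in control B cell progenitors and at 392, 2048 and 1131 CPM in Plcg1-/-Plcg2-/- ones. The double-deficient libraries thus included both the lowest and the highest of all 12. The log2 fold change was 0.51 (SE 0.49, adjusted p = 0.69 by edgeR), with an interval of 2 SE from -0.48 to 1.49. Without double-deficient replicate 2, the highest library, it was -0.14.

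In CLPs Rag1 was at 178, 745 and 517 CPM in controls and at 377, 819 and 867 CPM in Plcg1-/-Plcg2-/-. Control replicate 1, the library richest in Flt3, was the lowest of the 12, and the log2 fold change of 0.52 (SE 0.44, adjusted p = 0.81 by edgeR) became -0.03 in the 8 libraries with less Flt3. Single-deficient CLPs held 399.6, 392 and 363 CPM without PLCγ1, the narrowest spread of the 8 groups for Rag1, and 446, 298 and 498 CPM without PLCγ2. Among B cell progenitors the values were 452, 871 and 467 CPM without PLCγ1 and 476, 929.8 and 438 CPM without PLCγ2. Each of these 4 sets overlapped with its controls, and the log2 fold changes ran from -0.49 to -0.21.

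Rag2 had a Pearson r with Rag1 of 0.97 over the 12 B cell progenitor libraries and of 0.76 over the 12 CLP libraries. In B cell progenitors it was at 131, 121 and 66.6 CPM in controls and at 66.4, 274 and 135 CPM in Plcg1-/-Plcg2-/-, with the highest value again in replicate 2. The log2 fold change of 0.59 (SE 0.49, adjusted p = 0.63 by edgeR) was -0.06 without that library. In CLPs it was at 37.9, 94.5 and 61.9 CPM in controls and at 39.5, 91.4 and 84.0 CPM without both isoforms (log2 fold change 0.15, SE 0.36, adjusted p = 0.93 by edgeR). In the 8 CLP libraries with less Flt3 it was -0.34. Single-deficient CLPs held Rag2 at 39.95, 50.4 and 58.6 CPM without PLCγ1, the reverse of the order of Rag1 there, and at 33.6, 54.8 and 52.7 CPM without PLCγ2, where the lowest Rag2 stood beside a Rag1 of 446 CPM. Among single-deficient B cell progenitors it was at 47.7, 117 and 65.1 CPM and at 57.9, 131 and 67.4 CPM, and the log2 fold changes of all 4 sets against controls ran from -0.47 to -0.28. Per kb of exon the ratio of Rag1 to Rag2 ran from 2.44 to 6.88 among CLP libraries and from 3.06 to 4.92 among B cell progenitor libraries, with means of 3.61 to 4.98 in the 8 groups, and in the 3 Plcg1-/-Plcg2-/- B cell progenitor libraries it was 3.76 ± 0.65 (SD) against 4.18 ± 0.41 (SD) in controls.

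Dntt encodes TdT, which adds untemplated N nucleotides at V(D)J joins, and lies on chromosome 19 at 41029275 to 41059525 (mm10). In CLPs it was at 1681, 526 and 607 CPM in controls, 129.9, 1217 and 546 CPM without PLCγ1, 117, 1155 and 473 CPM without PLCγ2 and 193, 984 and 724 CPM without both. The highest library of each genotype was the one richest in Flt3, and these 4 libraries lay between 984 and 1681 CPM against 117 to 724 CPM in the other 8. This split was made after the data were seen. Over all 12 CLP libraries log2 CPM of Dntt had a Pearson r of 0.52 with Flt3, and over the 12 B cell progenitor libraries of -0.07. The ranges of the 4 genotypes all overlapped. Against controls the log2 fold change in double-deficient CLPs was -0.57 (SE 0.90, adjusted p = 0.90 by edgeR), and it was 0.15 without control replicate 1. The single-deficient genotypes were at -0.57 without PLCγ1 and -0.69 without PLCγ2.

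In B cell progenitors Dntt was at 458, 584 and 334 CPM in controls, 139.8, 579 and 493 CPM without PLCγ1, and 117, 158 and 588 CPM without PLCγ2. Plcg1-/-Plcg2-/- libraries held 245, 2117 and 1151 CPM, so that 2 of them lay above all 9 other libraries and 1 lay below the controls. The single-deficient genotypes had log2 fold changes of -0.18 and -0.69 against controls. The log2 fold change against controls was 1.35 (SE 0.75, adjusted p = 0.49 by edgeR), with an interval of 2 SE from -0.15 to 2.85, and against Plcg1+/+Plcg2-/- it was 2.04 (SE 0.77, adjusted p = 0.39 by edgeR). The double-deficient library at 245 CPM had the highest sum of the 8 myeloid markers in its group, 6853 CPM, against 2628 and 5371 CPM in the libraries at 2117 and 1151 CPM. Of the single-deficient B cell progenitor libraries with less Dntt, those at 117 and 139.8 CPM had sums of 7646.5 and 7722 CPM. The library without PLCγ2 at 158 CPM had a sum of 1439 CPM. In CLPs the libraries lowest in Dntt were replicate 1 of the 3 deficient genotypes, with myeloid sums of 7798 to 8640 CPM. The part of myeloid RNA in these levels was not tested.

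Among the genes whose log2 CPM ran most like Rag1 over the 12 CLP libraries were Cd79a, a signaling chain of the B cell receptor (Pearson r 0.97), Akap12 (0.95), Foxo1, a transcription factor known to activate the Rag genes (0.95), and Myo1c (0.95). For Rag2 in CLPs they were Cd81, Zbed3, Sae1, Fgf13 and Acp6, with r from 0.931 to 0.947. In B cell progenitors Rag1 and Rag2 were each the gene most like the other, with r of 0.97, followed for Rag1 by Acss1, Slamf6, Susd1 and Cd1d1 and for Rag2 by Tspan6, Cd1d1, Slamf6 and Acss1. The genes most like Dntt were Sh3rf1, Gimap6, St3gal6, Lax1 and Tnfsf11 in CLPs (0.942 to 0.974) and Frmd6, Arpp21, Bok, Fxyd6 and Mmrn1 in B cell progenitors (0.940 to 0.972). Between Rag1 and Dntt r was -0.13 in CLPs and 0.68 in B cell progenitors. These too are descriptions over 12 libraries that share depth and cell makeup.

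**Figure D3:**
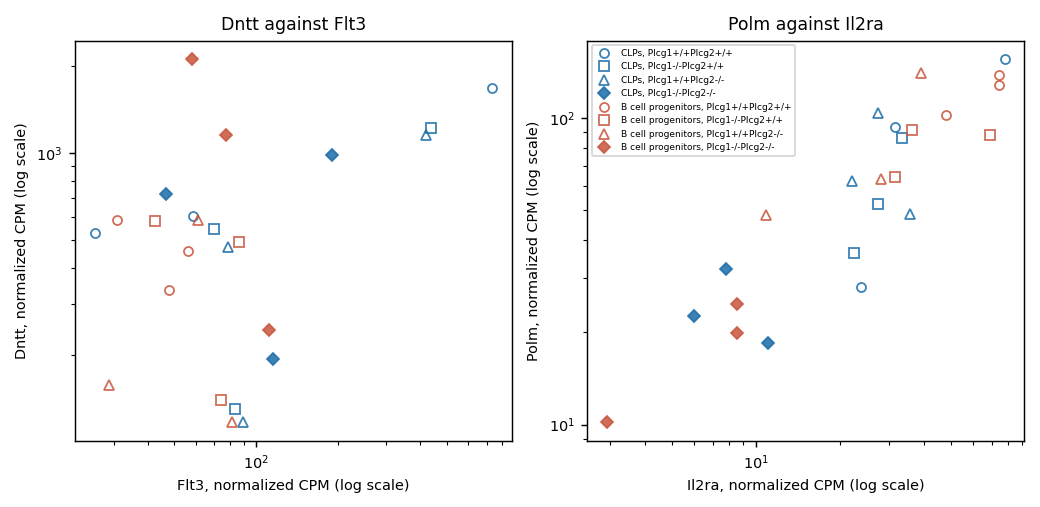
Normalized CPM per library (log axes) of Dntt against Flt3 and Polm against Il2ra in CLPs (blue) and B cell progenitors (red); the shape gives the genotype and filled diamonds are Plcg1-/-Plcg2-/-. The 4 CLP libraries with Flt3 of 189 or more hold Dntt at 984 or more, and the double-deficient libraries lie at low Polm and low Il2ra. Over 12 libraries, Pearson r of Dntt with Flt3 was 0.52 in CLPs and -0.07 in B cell progenitors. Il2ra and Polm were both called lower in double-deficient B cell progenitors.

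Ku, the heterodimer of the products of Xrcc5 (Ku80) and Xrcc6 (Ku70) that binds broken ends first, showed no called change in double-deficient cells. Xrcc5 lies on chromosome 1 at 72307421 to 72394952 (mm10). Its level in B cell progenitors was at 25.8, 31.9 and 29.5 CPM in controls and at 15.2, 31.3 and 22.4 CPM in Plcg1-/-Plcg2-/- (log2 fold change -0.31, SE 0.28, adjusted p = 0.66 by edgeR). The CLP libraries held it at 20.4, 29.3 and 25.3 CPM against 16.98, 26.3 and 27.2 CPM (log2 fold change -0.08, SE 0.21). The intervals of 2 SE, from -0.87 to 0.25 and from -0.51 to 0.34, both reach a fall of 0.5. Single-deficient cells held 17.1 to 23.4 CPM in CLPs and 17.02 to 32.9 CPM in B cell progenitors, with log2 fold changes of -0.29 to -0.19.

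Xrcc6, on chromosome 15 at 81987835 to 82040085 (mm10), overlaps Desi1 on the opposite strand. CLP libraries had it at 217, 366 and 244 CPM in controls, 169, 212 and 173 CPM without PLCγ1, 187, 205 and 189.6 CPM without PLCγ2 and 148, 223 and 255 CPM without both. Both single-deficient genotypes lay wholly below controls, with log2 fold changes of -0.58 (SE 0.22) and -0.51 (SE 0.22), whereas the double-deficient genotype overlapped with controls (-0.40, SE 0.22). As libraries were left out in turn, the single-deficient values ran from -0.74 to -0.31 without PLCγ1 and from -0.69 to -0.25 without PLCγ2. Both used the same control libraries. Xrcc6 was the 1 of the 10 genes at or under an unadjusted p of 0.05 in each single-deficient genotype, against 2.85% and 3.92% of all genes, and the 1 wholly below, against 3.29% and 4.58%. After adjustment neither passed (adjusted p = 1.0 and 0.94 by edgeR), and 0.00658% and 0% of all genes were called by edgeR. DESeq2 called none of the 10 in either, and 16 and 11 genes in all. Among B cell progenitors it was at 394, 371 and 240.0 CPM in controls and at 150.1, 439 and 311 CPM in Plcg1-/-Plcg2-/- (log2 fold change -0.15, SE 0.37, adjusted p = 0.89 by edgeR). Without PLCγ1 it was at 163, 305 and 178 CPM there (log2 fold change -0.64, SE 0.38) and without PLCγ2 at 168, 330.3 and 245 CPM (-0.43, SE 0.38), both overlapping with controls.

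Prkdc, which encodes DNA-PKcs, the kinase that binds Ku at the ends, lies on chromosome 16 at 15637866 to 15842235 (mm10). It was at 91.2, 62.9 and 66.0 CPM in control B cell progenitors and at 71.4, 75.9 and 59.5 CPM in Plcg1-/-Plcg2-/- ones (log2 fold change -0.09, SE 0.22, adjusted p = 0.89 by edgeR), and Plcg1-/-Plcg2+/+ libraries held 80.2 to 92.0 CPM. Among CLPs it was at 103, 53.2 and 68.0 CPM against 80.9, 65.8 and 62.4 CPM (log2 fold change -0.10, SE 0.21, adjusted p = 0.92 by edgeR). The intervals of 2 SE ran from -0.53 to 0.35 and from -0.52 to 0.31. Against controls the 4 single-deficient sets had log2 fold changes of -0.07 and 0.10 in CLPs and of 0.23 and 0.17 in B cell progenitors, without PLCγ1 and without PLCγ2 in turn.

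Lig4, which encodes the ligase of the final step, on chromosome 8 at 9969049 to 9977686 (mm10), lay below controls in all 3 Plcg1-/-Plcg2-/- B cell progenitor libraries and was not called. It was at 133, 145 and 112 CPM in controls and at 45.6, 106 and 78.0 CPM without both isoforms, with a log2 fold change of -0.75 (SE 0.38, adjusted p = 0.46 by edgeR). With Polm, 2 of the 10 genes were wholly below controls in B cell progenitors, where 10.8% of all genes were. The single-deficient values of 47.2, 119.5 and 71.5 CPM and of 59.5, 149.8 and 92.6 CPM overlapped with controls. In CLPs Lig4 was at 24.5, 119 and 79.4 CPM in controls and at 39.6, 53.1 and 74.9 CPM in Plcg1-/-Plcg2-/- (log2 fold change -0.40, SE 0.45, adjusted p = 0.85 by edgeR). Single-deficient CLPs held 29.6 to 49.7 CPM without PLCγ1 (log2 fold change -0.80, SE 0.45) and 37.0 to 54.7 CPM without PLCγ2 (-0.65, SE 0.45). None of the 10 was wholly below controls in CLPs, against 7.75% of genes.

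Xrcc4, whose product binds ligase IV, had the lowest median per kb of annotated exon in both populations. It was at 17.9, 15.6 and 13.3 CPM in control B cell progenitors and at 14.9, 20.2 and 20.8 CPM in Plcg1-/-Plcg2-/- ones (log2 fold change 0.27, SE 0.24, adjusted p = 0.65 by edgeR). Within CLPs it was at 11.5, 10.6 and 12.6 CPM in controls and at 12.3, 12.4 and 14.2 CPM without both isoforms (log2 fold change 0.16, SE 0.22, adjusted p = 0.88 by edgeR). Single-deficient cells held 8.66 to 16.5 CPM in CLPs and 10.2 to 18.1 CPM in B cell progenitors, with log2 fold changes of -0.09 to 0.29. It lies on chromosome 13 at 89774027 to 90089608 (mm10) and overlaps Tmem167 on the opposite strand, and the reads of the overlap cannot be assigned by strand. Over the 10 genes the median log2 fold change without both isoforms was 0.09 in B cell progenitors and -0.09 in CLPs, against -0.02 and -0.03 over all genes tested.

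**Figure D4:**
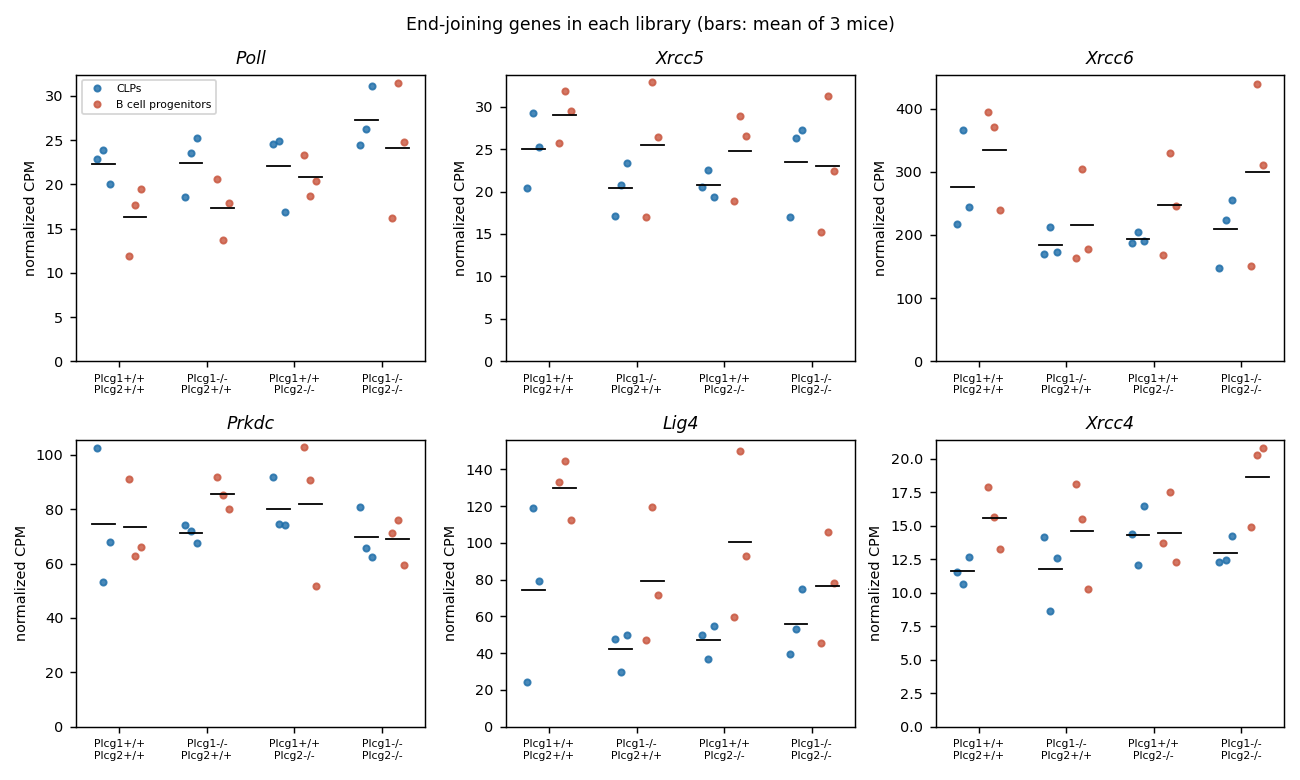
Normalized CPM (linear axes from 0) of Poll, Xrcc5, Xrcc6, Prkdc, Lig4 and Xrcc4 in each CLP library (blue points) and B cell progenitor library (red points), with the mean of 3 mice as a bar. Lig4 in Plcg1-/-Plcg2-/- B cell progenitors lies at 45.6 to 106 against 112 to 145 in controls, and the other genes overlap with controls there.

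**Figure D5:**
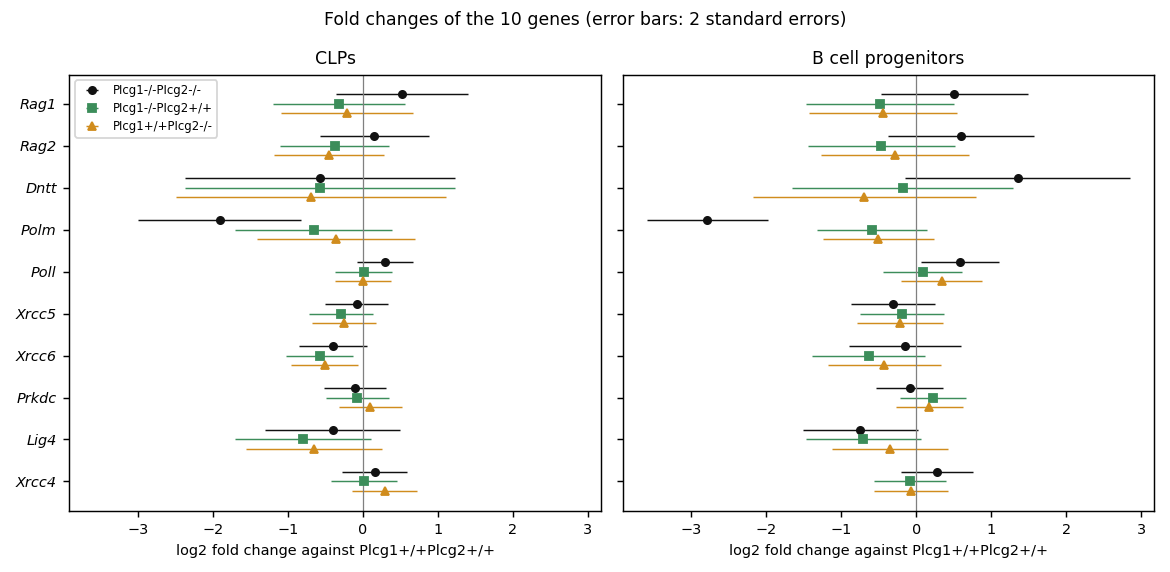
Log2 fold change of the 10 genes against Plcg1+/+Plcg2+/+ in CLPs and B cell progenitors for Plcg1-/-Plcg2-/- (black circles), Plcg1-/-Plcg2+/+ (green squares) and Plcg1+/+Plcg2-/- (orange triangles). Bars are 2 SE, the control libraries are shared by the 3 genotypes, and Polm in double-deficient cells lies farthest from 0, at -1.91 and -2.78.

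Both populations were also compared with each other, by sets of libraries from the same mice. No member was called between B cell progenitors and CLPs in any genotype, against 3.5% of 17212 genes in Plcg1+/+Plcg2+/+, 3.78% without PLCγ1, 3.21% without PLCγ2 and 3.24% without both. None was called with the mouse as a block or with DESeq2 either. By unadjusted p, 0, 0, 1 (Lig4) and 2 (Rag2 and Xrcc4) of the 10 were at 0.05 or less, against 16.1%, 26.5%, 16.2% and 14.3% of all genes. In controls the log2 fold change was 0.79 for Rag1 (SE 0.50), 0.70 for Rag2 (SE 0.46), -1.04 for Dntt (SE 0.89) and 0.80 for Lig4 (SE 0.44), with adjusted p of 0.40 or more by edgeR. In Plcg1-/-Plcg2-/- the log2 fold changes of these 4 genes were 0.77, 1.14, 0.87 and 0.45. For Rag1, Rag2 and Lig4 all 4 genotypes thus had positive values, between 0.45 and 1.14, none of which passed. Over the 4 genotypes the values ran from -1.06 to 0.87 for Dntt, -0.48 to 0.45 for Polm, -0.45 to -0.13 for Poll, -0.04 to 0.23 for Prkdc, 0.03 to 0.51 for Xrcc4, -0.03 to 0.28 for Xrcc5 and 0.18 to 0.51 for Xrcc6. These comparisons set 12 libraries labelled CLP, of which 8 had Flt3 at 115 CPM or less, against B cell progenitors.

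Other genes of the pathway were taken from lists of 41, of which 40 had a row in the files. None was called by edgeR in any comparison between genotypes. Between Plcg1-/-Plcg2-/- and controls 5 of the 40 had an unadjusted p of 0.05 or less in CLPs and 11 in B cell progenitors, against 7.52% and 12.3% of all genes. DESeq2 called 0 and 2 of them (Ikzf1 and Foxp1, both lower), and 169 and 444 genes in all. Of the RAG cofactors, Hmgb1 was at 420 to 772 CPM in control and 346 to 503 CPM in Plcg1-/-Plcg2-/- CLPs (log2 fold change -0.53, SE 0.23), and in B cell progenitors it had a log2 fold change of -0.52 (SE 0.28), with Hmgb2 at -0.27 and -0.42. Of 6 end-processing and accessory factors, among them the nuclease Artemis (Dclre1c), Cyren (3110062M04Rik in the files) had the largest log2 fold change in both populations, 0.23 and 0.54. Dclre1c was at -0.22 in CLPs and Aplf at -0.28 in B cell progenitors.

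Of 10 genes of the response to breaks, H2afx, the histone variant phosphorylated beside a break, had log2 fold changes of -0.64 in CLPs and -0.71 in B cell progenitors, with Rif1 at -0.18 and Mdc1 at -0.31. Of 5 genes of alternative end joining, Parp1 was at -0.40 and Rbbp8 at -0.21 in CLPs, and Polq was at -0.60 and Xrcc1 at -0.48 in B cell progenitors. Of 7 genes of homologous recombination, none was called by edgeR in either population, and 0 in CLPs and 3 in B cell progenitors (1 higher and 2 lower) had an unadjusted p of 0.05 or less, where 7.52% and 12.3% of all genes did. Rad54l, a motor protein of strand exchange, was at -0.33 in CLPs, and Rad52 was at 0.53 in B cell progenitors. Against Plcg1-/-Plcg2+/+ B cell progenitors, Rad52 was the 1 of the 40 genes that DESeq2 called (log2 fold change 0.65, adjusted p = 0.037 by DESeq2). DESeq2 called 802 of 15001 genes in that comparison. The 8 cell cycle genes, none called, had a median log2 fold change of -0.30 in CLPs and -0.46 in B cell progenitors, with all 8 negative in both, and their part in these values was not tested.

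Of 10 genes that regulate Rag transcription, none was called by edgeR. Ikzf1, the transcription factor Ikaros, was at 1006, 1035 and 1005 CPM in control B cell progenitors and at 421, 610.4 and 589 CPM in Plcg1-/-Plcg2-/- ones, all lower (log2 fold change -0.91, SE 0.20, adjusted p = 0.066 by edgeR). In CLPs its log2 fold change was -0.59 (SE 0.17, adjusted p = 0.39 by edgeR). Foxp1 was at -0.81 in B cell progenitors (SE 0.25, adjusted p = 0.20 by edgeR) and Foxo1 at 0.61 in CLPs (SE 0.40, adjusted p = 0.77 by edgeR). Over the 40 genes the median log2 fold change without both isoforms was -0.16 in CLPs and -0.27 in B cell progenitors, against -0.03 and -0.02 over all genes tested.

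Between populations, edgeR called 2 of the 40 in controls and 1 in each of the other genotypes. The shares of all 17212 genes called were 3.5% in controls, 3.78% without PLCγ1, 3.21% without PLCγ2 and 3.24% without both. Cyren, known as a modulator of end joining, was higher in B cell progenitors than in CLPs in all 4 genotypes, at 15.9, 17.2 and 14.7 CPM against 4.998, 5.56 and 6.37 CPM in controls. Its log2 fold changes were 1.48 in controls, 1.25 without PLCγ1, 1.30 without PLCγ2 and 1.77 without both. Rbbp8, whose product CtIP starts resection of broken ends, was called higher in B cell progenitors of controls, at a log2 fold change of 0.58 (SE 0.14, adjusted p = 0.024 by edgeR). Its log2 fold changes in the other genotypes, 0.24, 0.30 and 0.45 in the same order, were not called, and the difference between genotypes was tested for the double-deficient and control cells alone, where it was not called.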

How the data were processed

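RNA of CLPs and B cell progenitors from 12 mice of 4 genotypes was analysed, 24 libraries in all. The authors purified poly(A) RNA, made libraries with a kit that does not mark strand, sequenced them on a NextSeq 500 and aligned the reads to mm10 with STAR 2.5.0a through BaseSpace. They deposited raw counts per gene symbol for each library, without normalization, and the counting program was not given in the sources used here. The 2 last lines of each file, reads on no gene and ambiguous reads, were left out of library sizes and tests. They held 17.9% to 45.2% and 1.06% to 1.44% of reads in CLP files and 59.9% to 87.3% and 0.110% to 0.420% in B cell progenitor files. Samples were grouped by the labels.

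The counts were tested with edgeR 4.0.16 (R 4.3.3; TMM, filterByExpr, glmQLFit and glmQLFTest, Benjamini-Hochberg adjustment over all genes tested). One fit per population held its 12 libraries, which tested 15209 genes for CLPs and 15001 for B cell progenitors, and a fit of all 24 libraries gave the comparison of populations and the difference of effects. SE were derived from the F statistic, intervals are 2 SE wide on each side, and correlations used log2 CPM with a prior count of 2. The alternatives were DESeq2 1.42.0, RLE size factors, calls by adjusted p without a fold threshold, all genes kept whatever their counts, the 2 groups alone, the replicate number or mouse as a block, and fits without 1 library each. The fit of 8 CLP libraries was added after seeing the data. The 10 genes and all lists were chosen with earlier results of these data known. All 10 genes were described in each comparison, some by the range of their values, list genes were named where called or as the 2 with the largest change, and the 5 genes most like Rag1, Rag2 and Dntt by Pearson r. Some list genes and their results are not reported here, and list counts and sums were computed without those left out of the lists. Intervals that depth gives cover counting error only.

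Same-numbered replicates correlated in their deviations from group means at 0.236 to 0.645 in each pair of double- with single-deficient CLPs. Between B cell progenitors without both isoforms and those without PLCγ2 the correlation was 0.207 to 0.314. No block was held by the main fits, so their SE and p use neither this pairing nor that of libraries from the same mouse. Replicate number and mouse were blocks in alternative fits alone. Deviations of libraries from the same mouse correlated on average at 0.032 in controls, -0.062 without PLCγ1, 0.24 without PLCγ2 and 0.24 without both. The edgeR fits were tested on simulated counts before use. In each simulated comparison 100 genes were changed by a log2 fold change of 1 and 100 by 2. Of the former, 25% were called in double-deficient against control CLPs, 24% in such B cell progenitors and 34% between control populations. Of the latter, 63%, 68% and 55% were called, so a gene not called may still have changed. Calls of unchanged genes numbered 2, 8 and 2. Positions and exon lengths come from GENCODE M21 on GRCm38, the assembly of mm10, and sequences from RefSeq on GRCm38.p6. Plots used matplotlib 3.10.9 (Python 3.11.15).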

Additional observations from a re-analysis of the deposited data

How the results depend on the processing

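The call of Polm in B cell progenitors between Plcg1-/-Plcg2-/- and Plcg1+/+Plcg2+/+ was kept under every alternative, with 1 member called throughout. In CLPs the count of members called in this comparison went from 0 to 1 with DESeq2 and ranged from 0 to 1 as libraries were left out, with 1 without Plcg1+/+Plcg2+/+ replicate 1. Against Plcg1-/-Plcg2+/+ B cell progenitors it went from 0 to 1 with no filter on low counts, with DESeq2 and with the replicate block, although the numbers were not shown to pair these samples (lowest correlation 0.012). Against Plcg1+/+Plcg2-/- it went from 0 to 1 with no filter and with DESeq2 and ranged from 0 to 1 as libraries were left out. The added member was Polm each time. The replicate block changed no other count of members called, and the cause of these changes was not tested. Over all genes, calls between Plcg1-/-Plcg2-/- and controls went from 14 to 169 with DESeq2 and 50 with the block in CLPs and from 134 to 444 with DESeq2, 550 with the block and 238 with the 2 groups alone in B cell progenitors. Replicate numbers were not shown to pair these samples with the controls either (lowest correlation -0.13 and -0.062), and the CLP library richest in Flt3 is replicate 1 in controls and replicate 2 in the other genotypes; whether the numbers match was not tested. In the comparison with Plcg1-/-Plcg2+/+ B cell progenitors they went from 32 to 802 with DESeq2, 100 with the block and 17 with RLE size factors, and in that with Plcg1+/+Plcg2-/- from 23 to 161 with DESeq2, 46 with the block and 7 with the 2 groups alone. The 2 groups alone called 0 genes in every other genotype comparison except Plcg1-/-Plcg2+/+ against control B cell progenitors (6). Double- against single-deficient CLPs went from 4 and 8 genes to 96 and 104 with DESeq2, 17 and 26 with the block, 7 and 13 with no filter and 0 and 2 in the 8 CLP libraries with less Flt3, where double-deficient against control CLPs had 27 and Plcg1-/-Plcg2+/+ against control 0. Single-deficient against control cells went from 1, 0, 9 and 7 genes to 16, 11, 29 and 17 with DESeq2. Between populations the 2 groups alone gave 314, 222 and 177 genes for 602, 650 and 552 in control, Plcg1-/-Plcg2+/+ and Plcg1+/+Plcg2-/-, DESeq2 gave 1484 for 650 in the second and no filter 344 for 552 in the third.

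Log2 fold changes that changed sign were those of genes not called. As libraries were left out in turn, between Plcg1-/-Plcg2-/- and Plcg1+/+Plcg2+/+ CLPs they ranged from -0.14 to 0.55 for Rag2, -1.03 to 0.15 for Dntt, -0.22 to 0.10 for Xrcc5, -0.26 to 0.18 for Prkdc and -0.84 to 0.13 for Lig4. In B cell progenitors they ranged from -0.14 to 0.94 for Rag1, -0.062 to 0.96 for Rag2, -0.53 to 0.18 for Xrcc6 and -0.18 to 0.094 for Prkdc. Polm between Plcg1+/+Plcg2-/- and control CLPs ranged from -0.83 to 0.23, and Dntt between Plcg1-/-Plcg2+/+ B cell progenitors and CLPs from -1.34 to 0.076. In the 8 CLP libraries with less Flt3, a fit chosen after seeing the data, the values without both isoforms were -0.033 for Rag1, -0.34 for Rag2 and 0.22 for Prkdc. The smallest B cell progenitor library held 1479582 reads on genes, which limits Xrcc4 and Poll there to 18 and 30 reads.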
